A study of Homo sapiens with 6 samples.

Results

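The neuroendocrine markers were 6 genes of the count table, UCHL1, ENO2, SYP, SCG2, CHGA and NCAM1, out of 54261 gene symbols. They were picked by symbol, but with earlier results of these data known. They were measured by RNA sequencing of PC9/GR, derived from PC9, a human lung adenocarcinoma line. The suffix GR is not spelled out in the labels, and the subject in the series title is resistance to drugs that inhibit EGFR, the epidermal growth factor receptor. There were 3 samples given an siRNA against the long non-coding RNA MYLK-AS1 (si-MYLK-AS1) and 3 given a control siRNA (si-NC), all of this 1 line. The sources used here give neither the siRNA sequences, doses and harvest times nor whether the repeats were separate cultures, so p-values reflect only the spread from sample to sample, possibly technical.

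Neuroendocrine cells of the airway store peptides and amines in dense-core granules and release them when stimulated. They share vesicle proteins, granins and several neuronal enzymes with neurons, and pathologists use these proteins as markers of neuroendocrine tumours such as small cell lung cancer. Change of an EGFR-mutant adenocarcinoma into a neuroendocrine tumour is a known route of escape from EGFR inhibitors. In that setting transcription factors such as NEUROD1 and INSM1 drive the neuroendocrine programme and REST and Notch signalling hold it down.

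Of the 6 markers, ENO2, SYP and SCG2 were 1.45, 1.72 and 1.68 times as high in si-MYLK-AS1 cells as in si-NC cells and rose by the test across all genes. UCHL1, the most abundant of the 6, did not pass it. CHGA had between 2 and 6 reads in every library and NCAM1 had none, so both stayed out of the fit. Of the 4 tested markers 3 rose and 0 fell, where 21.3% of all 15391 tested genes rose, 20.7% fell and 42.0% changed in either direction. The median log2 fold change was 0.64 over the 4 tested markers and -0.00 over all tested genes.

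Library totals ran from 7551303 to 11055408 reads in si-MYLK-AS1 and from 8867818 to 10978513 reads in si-NC. Levels are CPM, read counts scaled to library size with factors from the trimmed mean of M values (TMM). Genes were tested with edgeR's quasi-likelihood test at a Benjamini-Hochberg adjusted p of 0.05. MYLK-AS1 itself had 0, 5 and 4 reads in si-MYLK-AS1 replicates 1 to 3 and 20, 16 and 19 reads in si-NC replicates 1 to 3 (log2 fold change -2.43, standard error 0.60, adjusted p = 0.00326 by edgeR's quasi-likelihood test). It shares 133 exon bases with MYLK on the opposite strand. MYLK had 291, 281 and 197 reads in si-MYLK-AS1 replicates 1 to 3 and 412, 519 and 411 reads in si-NC replicates 1 to 3. Whether counting used strand is not given, so the low count of MYLK-AS1 is uncertain. In bulk RNA, a change in the number of cells that express a gene and a change in RNA per cell cannot be told apart.

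**Figure D1:**
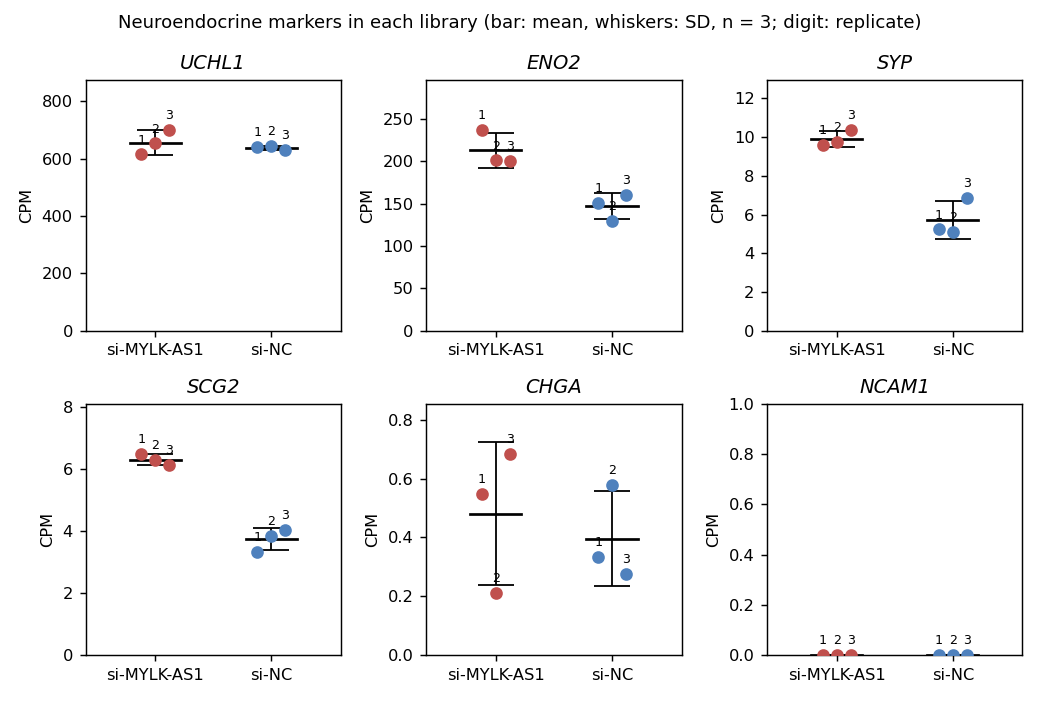
CPM of each marker (vertical axes, each starting at 0) in the 3 si-MYLK-AS1 and 3 si-NC libraries (points, with the replicate number), with mean and SD. The si-MYLK-AS1 points lie above the si-NC points for ENO2, SYP and SCG2, the groups overlap for UCHL1 and CHGA, and NCAM1 is at 0 in all 6.

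The cytosolic enzymes come first. UCHL1 codes for ubiquitin C-terminal hydrolase L1, a deubiquitinating enzyme abundant in neurons, and sits on the plus strand of chromosome 4 between 41256413 and 41268455 (GRCh38, GENCODE release 29). It had 614, 653 and 700.0 CPM in si-MYLK-AS1 replicates 1 to 3, against 639, 643 and 630 CPM in si-NC replicates 1 to 3. The si-NC values all lay within the range of the si-MYLK-AS1 values. The mean was 656 ± 43.0 CPM in si-MYLK-AS1 and 637 ± 7.02 CPM in si-NC (SD, n = 3 each). The log2 fold change was 0.04 (standard error 0.09, adjusted p = 0.741 by edgeR's quasi-likelihood test), with a 95% interval from 0.906-fold to 1.17-fold. With 18081 reads in si-MYLK-AS1 and 19301 in si-NC, counting error was small, about 1.30% and 1.25% of a library's value. By mean CPM UCHL1 was at rank 178 of the 15391 tested genes in si-MYLK-AS1 and at rank 179 in si-NC.

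ENO2 codes for gamma enolase, the enolase of neurons and neuroendocrine cells, which carries out the same glycolytic step as the ubiquitous ENO1. It sits on the plus strand of chromosome 12 between 6913745 and 6923698. It had 237, 201 and 201 CPM in si-MYLK-AS1 replicates 1 to 3, against 151, 130 and 161 CPM in si-NC replicates 1 to 3. Every si-MYLK-AS1 library lay above every si-NC library, as for 26.1% of all tested genes. The groups did not overlap for 3 of the 4 tested markers, against 52.2% of all tested genes in either direction. The mean was 213 ± 20.9 CPM in si-MYLK-AS1 and 147 ± 15.7 CPM in si-NC (SD, n = 3 each), with a log2 fold change of 0.53 (standard error 0.10, adjusted p = 0.000443 by edgeR's quasi-likelihood test). Its rank by mean CPM was 783 in si-MYLK-AS1 and 1208 in si-NC. Of all tested genes, 16.5% had a log2 fold change at least as high.

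The vesicle marker SYP codes for synaptophysin, a membrane protein of small synaptic-type vesicles, and sits on the minus strand of the X chromosome between 49187804 and 49200259. It was covered by 105, 93 and 76 reads in si-MYLK-AS1 replicates 1 to 3, against 47, 53 and 75 reads in si-NC replicates 1 to 3. In CPM these were 9.59, 9.75 and 10.4 in si-MYLK-AS1, against 5.23, 5.11 and 6.86 in si-NC. The groups did not overlap, and si-NC replicate 3 was the highest of its group. The mean was 9.90 ± 0.416 CPM in si-MYLK-AS1 and 5.73 ± 0.982 CPM in si-NC (SD, n = 3 each). The log2 fold change of 0.78 (standard error 0.20, adjusted p = 0.00468 by edgeR's quasi-likelihood test) was matched or passed by 8.36% of all tested genes.

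Of the granins, the acidic proteins that fill dense-core granules, SCG2 and CHGA were among the markers. SCG2, secretogranin II, is the precursor of the neuropeptide secretoneurin and sits on the minus strand of chromosome 2 between 223596940 and 223602503. It had 71, 60 and 45 reads in si-MYLK-AS1 replicates 1 to 3, against 30, 40 and 44 reads in si-NC replicates 1 to 3. In CPM the values were 6.48, 6.29 and 6.14 in si-MYLK-AS1, against 3.34, 3.85 and 4.03 in si-NC, again without overlap. The mean was 6.31 ± 0.171 CPM in si-MYLK-AS1 and 3.74 ± 0.359 CPM in si-NC (SD, n = 3 each), with a log2 fold change of 0.75 (standard error 0.23, adjusted p = 0.0139 by edgeR's quasi-likelihood test). Without si-NC replicate 1, its lowest library, the log2 fold change was 0.67 and the call was lost (adjusted p = 0.0656). At these read numbers counting error alone is 13.3% of a si-MYLK-AS1 value and 16.4% of a si-NC value, more than the spread seen between the libraries (2.71% in si-MYLK-AS1 and 9.61% in si-NC). A log2 fold change as high was held by 9.04% of tested genes.

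CHGA, chromogranin A, sits on the plus strand of chromosome 14 between 92923080 and 92935293. It had 6, 2 and 5 reads in si-MYLK-AS1 replicates 1 to 3, against 3, 6 and 3 reads in si-NC replicates 1 to 3. The groups overlapped widely, at 0.480 ± 0.244 CPM in si-MYLK-AS1 and 0.395 ± 0.161 CPM in si-NC (SD, n = 3 each), with p = 0.8 in a two-sided exact permutation test, where the smallest p that 3 against 3 samples allow is 0.1. The ratio of the summed rates, 13 reads in si-MYLK-AS1 and 12 in si-NC, was 1.18 with an exact 95% interval from 0.496 to 2.83. This interval covers counting error only, and a change of the size seen in SYP or SCG2 lies inside it.

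NCAM1 codes for the neural cell adhesion molecule, a surface protein and a widely used stain for neuroendocrine tumours. It spans chromosome 11 from 112961247 to 113278436 on the plus strand and has 12737 bases of exon. No read was assigned to it in any of the 6 libraries. Taken as 3 counts, the floor over the summed libraries was 0.108 CPM in si-MYLK-AS1 and 0.0990 CPM in si-NC, again for counting error only. Its relative NCAM2 had 1, 0 and 0 reads in si-MYLK-AS1 replicates 1 to 3, against 0, 0 and 2 reads in si-NC replicates 1 to 3.

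Reads from neighbouring or antisense genes could enter these counts, since the sources used here do not say whether counting used strand. UCHL1 shares 135 exon bases with UCHL1-AS1, which had at most 4 reads in a library, and SYP shares 68 with SYP-AS1, which had at most 1. ENO2 overlaps LRRC23 on the same strand with 0 shared exon bases. NCAM1 shares 552 exon bases with NCAM1-AS1, which had 0 reads in every library, and 151 with AP000802.1, a symbol without a row of counts. No annotated gene overlaps SCG2 or CHGA.

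Levels of different genes can be compared roughly after division by exon length. The length used was that of all annotated exons of a gene merged, whichever transcripts these cells make. It was 2719 bases for SCG2 and 5215 for SYP, and before this division SYP was above SCG2 in every library. On this scale, in CPM per kb of exon, the order was UCHL1, ENO2, SCG2, SYP, CHGA and NCAM1 in each of the 6 libraries. UCHL1 averaged 287 ± 18.8 CPM per kb in si-MYLK-AS1 and 279 ± 3.08 in si-NC. ENO2 averaged 49.8 ± 4.88 CPM per kb in si-MYLK-AS1 and 34.4 ± 3.67 in si-NC (SD, n = 3 each). On this scale UCHL1 was at 5.77 times the level of ENO2 in si-MYLK-AS1 and at 8.12 times in si-NC. SCG2 at 2.32 ± 0.0628 and SYP at 1.90 ± 0.0797 CPM per kb in si-MYLK-AS1 did not overlap, while in si-NC, at 1.38 ± 0.132 for SCG2 and 1.10 ± 0.188 for SYP, their libraries overlapped (SD, n = 3 each). The level of CHGA was 0.155 ± 0.0785 CPM per kb in si-MYLK-AS1 and 0.127 ± 0.0519 in si-NC (SD, n = 3 each), below every library of the other 4 markers with reads.

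**Figure D2:**
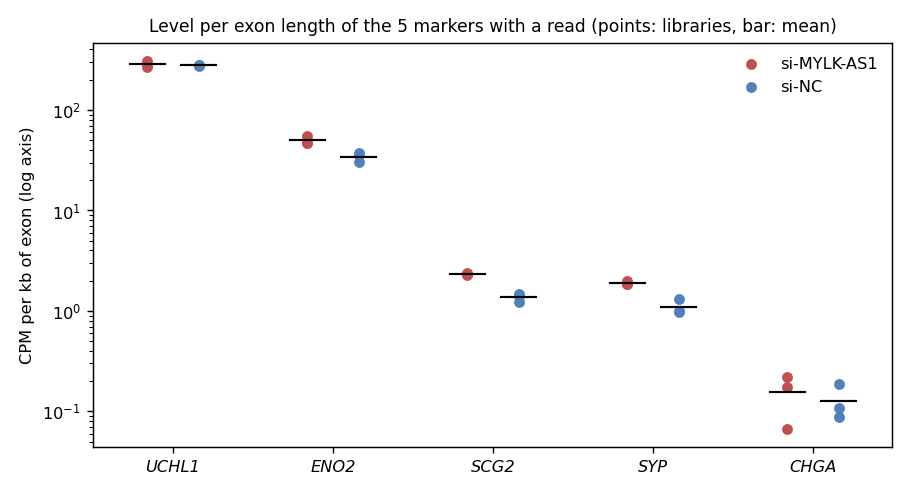
CPM per kb of exon on a log axis for the 5 markers with a read, in si-MYLK-AS1 (left of each pair) and si-NC (right) libraries, with the mean as a bar. UCHL1 stands highest, the mean of ENO2 is 21.5 to 31.3 times those of SCG2 and SYP, and CHGA is lowest.

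The promoter source used here held no entry for SCG2, which rose, or for NCAM1. The bases just before the start are therefore shown for the other markers, UCHL1, ENO2, SYP and CHGA. Each is the 250 bases before the RefSeq start (RefSeq, GRCh38.p14), written 5′ to 3′ on the gene's strand, at chr4:41256678-41256927 (UCHL1, plus), chr12:6914330-6914579 (ENO2, plus), chrX:49200194-49200443 (SYP, minus) and chr14:92922900-92923149 (CHGA, plus). The GENCODE spans given above start earlier than the RefSeq starts. By those spans the windows of UCHL1 and ENO2 lie wholly inside the gene, and those of SYP and CHGA run partly into it. Capitals mark matches to any of 8 motifs searched on both strands. One was the GC box, GGGCGG. One was the TATA box, written as TATAAA here. The cyclic AMP response element was searched as TGACGTCA. The site of the factor AP-1 was searched as TGACTCA. The core of the hypoxia response element was searched as ACGTG. An E-box was searched as CAGCTG. Of the site of REST, the first piece was searched as CAGCACC. The second piece of that site was searched as GGACAG.
UCHL1: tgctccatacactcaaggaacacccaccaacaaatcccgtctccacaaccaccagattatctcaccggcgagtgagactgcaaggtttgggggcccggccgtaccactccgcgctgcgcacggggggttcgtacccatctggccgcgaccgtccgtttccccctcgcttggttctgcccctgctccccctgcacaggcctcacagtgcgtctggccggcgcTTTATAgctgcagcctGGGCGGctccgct
ENO2: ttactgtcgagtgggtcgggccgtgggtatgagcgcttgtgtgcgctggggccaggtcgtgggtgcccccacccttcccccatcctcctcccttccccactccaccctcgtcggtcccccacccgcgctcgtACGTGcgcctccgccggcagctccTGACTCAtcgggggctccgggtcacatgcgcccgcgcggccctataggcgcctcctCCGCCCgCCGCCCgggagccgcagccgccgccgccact
SYP: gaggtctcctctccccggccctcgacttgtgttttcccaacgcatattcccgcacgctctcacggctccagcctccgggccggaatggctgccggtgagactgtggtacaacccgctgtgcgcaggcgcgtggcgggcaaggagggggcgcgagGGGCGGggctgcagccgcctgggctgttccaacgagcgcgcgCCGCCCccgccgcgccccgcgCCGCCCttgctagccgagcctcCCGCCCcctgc
CHGA: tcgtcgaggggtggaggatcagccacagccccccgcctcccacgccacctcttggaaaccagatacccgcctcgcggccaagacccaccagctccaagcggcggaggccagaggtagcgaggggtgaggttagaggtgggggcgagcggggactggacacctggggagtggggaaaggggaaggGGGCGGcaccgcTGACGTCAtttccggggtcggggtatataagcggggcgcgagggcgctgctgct

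All 4 windows hold the GC box, once in UCHL1 and CHGA, 2 times in ENO2 and 4 times in SYP, as do 42.6% of 35114 RefSeq windows of the same length. UCHL1 holds TTTATA, which reads TATAAA on the other strand, from 29 to 24 bases before the start (10.7% of all windows hold this motif). ENO2 holds TGACTCA from 94 to 88 bases before the start (4.20% of windows) and ACGTG from 118 to 114 bases before it (18.5%). CHGA holds TGACGTCA from 54 to 47 bases before the start (1.65%). CAGCTG (14.0% of windows), CAGCACC (6.16%) and GGACAG (17.2%) occur in none of the 4, which says only that these letters are not in these windows. All 4 are rich in G and C, at 64.4% in UCHL1, 74.0% in ENO2, 74.0% in SYP and 68.8% in CHGA, where the median window has 58.0%. No matches overlap each other, and a match is a description of the letters, not a binding site.

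Relatives of the markers showed how far each change was shared within its family. ENO1, the ubiquitous enolase, had 2897 ± 247 CPM in si-MYLK-AS1 and 2407 ± 120 CPM in si-NC (SD, n = 3 each) and rose (log2 fold change 0.27, standard error 0.09, adjusted p = 0.0274 by edgeR's quasi-likelihood test). That call was lost without si-MYLK-AS1 replicate 3 (adjusted p = 0.0697), without si-NC replicate 1 (0.117) and without si-NC replicate 2 (0.102). ENO3, the muscle enolase, fell (-0.58, standard error 0.14, adjusted p = 0.00291), with 111 exon bases shared with the abundant PFN1 on the opposite strand, so its count is uncertain. ENO4 had a log2 fold change of -0.50 (standard error 0.47, adjusted p = 0.423). As a share of ENO1, ENO2 and ENO3 together, per exon length, ENO2 made up 9.18%, 8.38% and 7.19% in si-MYLK-AS1 replicates 1 to 3, against 7.32%, 6.20% and 7.06% in si-NC replicates 1 to 3. These shares overlapped (p = 0.2, two-sided exact permutation test); 3 against 3 samples allow no p below 0.1.

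In the ubiquitin hydrolase family UCHL3, the closest relative of UCHL1, rose. It had 26.9 ± 4.39 CPM in si-MYLK-AS1 and 12.9 ± 1.12 CPM in si-NC (SD, n = 3 each; log2 fold change 1.05, standard error 0.16, adjusted p = 3.92e-05 by edgeR's quasi-likelihood test). BAP1, a nuclear deubiquitinase and tumour suppressor, fell (-0.38, standard error 0.10, adjusted p = 0.00457). The proteasome-associated UCHL5 did not pass (-0.07, standard error 0.15, adjusted p = 0.735). Per exon length UCHL1 still made up 90.3 ± 0.687% of the 4 hydrolases in si-MYLK-AS1 and 91.1 ± 0.229% in si-NC (SD, n = 3 each). UCHL3 made up 4.43 ± 0.468% in si-MYLK-AS1 and 2.21 ± 0.174% in si-NC, without overlap (p = 0.1, two-sided exact permutation test, the smallest possible).

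Among relatives of SYP, the vesicle proteins SYPL1 (0.26, standard error 0.12, adjusted p = 0.0873), SYNGR1 (-0.31, standard error 0.15, adjusted p = 0.102) and SYNGR2 (-0.00, standard error 0.10, adjusted p = 0.998) did not pass the test. Without si-MYLK-AS1 replicate 1, SYPL1 passed (0.39, adjusted p = 0.0135) and so did SYNGR1 (-0.46, adjusted p = 0.0342). SYNGR3, a synaptogyrin of synaptic vesicles, fell (-0.39, standard error 0.14, adjusted p = 0.0290 by edgeR's quasi-likelihood test). Its call was lost without si-MYLK-AS1 replicate 2 (adjusted p = 0.112), si-MYLK-AS1 replicate 3 (0.0543) or si-NC replicate 3 (0.137). SYPL2 had at most 1 read in a library. Over the list of 13 relatives, 10 were tested, of which 2 rose and 3 fell, with a median log2 fold change of -0.19. Of all tested genes, 21.3% rose and 20.7% fell.

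**Figure D3:**
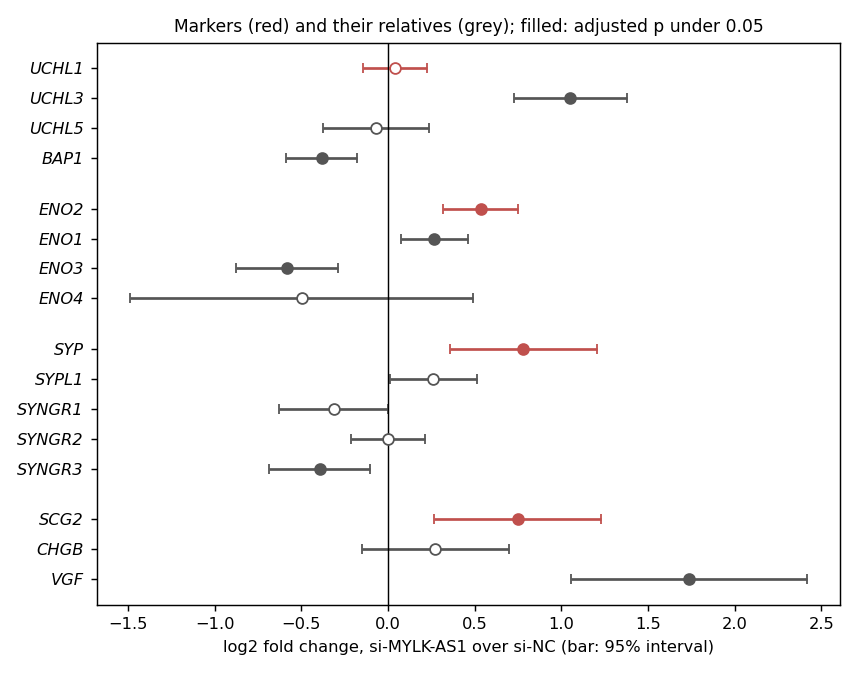
Log2 fold change of si-MYLK-AS1 over si-NC with its 95% interval for the 4 tested markers (red) and their tested relatives (grey), grouped by family; filled points have an adjusted p under 0.05. UCHL1 sits at 0.04 beside UCHL3 at 1.05, and SYP at 0.78 stands above SYPL1, SYNGR1, SYNGR2 and SYNGR3.

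Of 26 other genes of the regulated secretory and synaptic vesicle machinery, 12 were too low to be tested. Of the 14 tested, 3 rose, 1 fell and 10 did not pass, where 21.3% of all tested genes rose and 20.7% fell, with a median log2 fold change of 0.08. The granin-like VGF, a neuropeptide precursor, had 6.12, 7.86 and 9.56 CPM in si-MYLK-AS1 replicates 1 to 3, against 1.89, 1.25 and 3.75 CPM in si-NC replicates 1 to 3. Its log2 fold change of 1.74 (standard error 0.32, adjusted p = 0.000351 by edgeR's quasi-likelihood test) stood above those of the 4 tested markers, a difference that was not tested. PAM, the enzyme that amidates peptide hormones, rose to 126 ± 5.06 CPM in si-MYLK-AS1, against 69.3 ± 3.52 CPM in si-NC (SD, n = 3 each; 0.87, standard error 0.09, adjusted p = 1.48e-06). DDC, the decarboxylase that makes dopamine and serotonin, rose at a low level (2.13 ± 0.589 CPM in si-MYLK-AS1 and 0.854 ± 0.346 CPM in si-NC; 1.27, standard error 0.42, adjusted p = 0.0218). Its call was lost with DESeq2 (adjusted p = 0.0531) and without si-MYLK-AS1 replicate 2 (0.0539), si-MYLK-AS1 replicate 3 (0.0731), si-NC replicate 1 (0.0897) or si-NC replicate 3 (0.0909). The fall of VAMP2, a vesicle fusion protein, was small (-0.26, standard error 0.10, adjusted p = 0.0442) and was lost when any library other than si-NC replicate 2 was left out (adjusted p up to 0.124), with DESeq2 (0.0575), with limma-voom (0.0522) and with no filter (0.0732). CHGB, chromogranin B, named after its value was seen, had 15.02 ± 4.25 CPM in si-MYLK-AS1 and 12.5 ± 2.13 CPM in si-NC (SD, n = 3 each; 0.27, standard error 0.20, adjusted p = 0.298). The hormone genes GRP and CALCA and the amine transporter SLC18A1, also named after their values were seen, had no read in any library.

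Of 16 neuronal cytoskeleton and surface genes, 8 were tested, and 2 rose and 2 fell, near the shares of all tested genes (21.3% and 20.7%), with a median log2 fold change of -0.22. TUBB3, the neuronal beta tubulin, rose to 211 ± 7.20 CPM in si-MYLK-AS1, against 139 ± 10.6 CPM in si-NC (SD, n = 3 each; 0.60, standard error 0.09, adjusted p = 4.55e-05 by edgeR's quasi-likelihood test). NEFL, the light neurofilament chain, rose to 4.67 ± 1.02 CPM in si-MYLK-AS1, against 1.87 ± 0.288 CPM in si-NC (1.31, standard error 0.30, adjusted p = 0.00190). The vesicle motor KIF1A (-0.82, standard error 0.30, adjusted p = 0.0372) and the adhesion molecule L1CAM (-0.61, standard error 0.23, adjusted p = 0.0497) fell. Leaving out any 1 library ended the call of KIF1A (adjusted p up to 0.0986), as did DESeq2 (0.0860) and no filter (0.0683), and leaving out any but si-MYLK-AS1 replicate 1 ended that of L1CAM (adjusted p up to 0.177), as did RLE factors (0.0504) and no factors (0.0529).

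Transcription factors that define the neuroendocrine state, NEUROD1 and INSM1, were at or near 0 in both groups. NEUROD1 had 2 reads in si-MYLK-AS1 replicate 2 and none elsewhere. INSM1 and the tuft cell factor POU2F3 had no read in any library. Of 22 factors listed, 8 had no read at all and 7 were tested. Where 21.3% of all tested genes rose and 20.7% fell, 1 of these 7 rose and 0 fell. That gene was SOX4, a SOX factor active in many carcinomas, at 114 ± 6.19 CPM in si-MYLK-AS1 and 63.9 ± 2.38 CPM in si-NC (SD, n = 3 each; 0.84, standard error 0.10, adjusted p = 2.47e-06 by edgeR's quasi-likelihood test). HES6 (0.42, standard error 0.20, adjusted p = 0.110), POU4F1 (0.52, standard error 0.35, adjusted p = 0.242) and FOXA1 (-0.08, standard error 0.20, adjusted p = 0.783) did not pass. Without si-NC replicate 3, in which it had 189 reads, HES6 passed with a log2 fold change of 0.73 (adjusted p = 0.00468).

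Among genes that hold the neuroendocrine programme down, REST, the repressor of neuronal genes, had 30.1, 37.0 and 30.9 CPM in si-MYLK-AS1 replicates 1 to 3, against 28.8, 27.8 and 20.5 CPM in si-NC replicates 1 to 3. Its log2 fold change of 0.35 (standard error 0.15, adjusted p = 0.0671 by edgeR's quasi-likelihood test) missed the threshold, with the groups not overlapping. Of the 22 genes of REST, Notch and YAP signalling 18 were tested, and 1 rose and 3 fell. Among all tested genes 21.3% rose and 20.7% fell. The receptor NOTCH1 fell to 47.2 ± 9.87 CPM in si-MYLK-AS1, against 82.9 ± 2.58 CPM in si-NC (SD, n = 3 each; -0.80, standard error 0.13, adjusted p = 8.98e-05). Its ligand JAG1 fell to 97.2 ± 7.65 CPM in si-MYLK-AS1, against 166 ± 12.2 CPM in si-NC (-0.77, standard error 0.10, adjusted p = 7.63e-06). YAP1, the Hippo pathway coactivator that neuroendocrine lung tumours often lack, rose (0.51, standard error 0.12, adjusted p = 0.00268), while its paralogue WWTR1 fell (-0.54, standard error 0.11, adjusted p = 0.000740). RBPJ of this list, named after its value was seen, had no read in any library, and whether the way reads were counted accounts for this was not tested. The list median was -0.17.

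RB1, the retinoblastoma tumour suppressor, is lost in most small cell lung cancers. It was low, at 1.02 ± 0.458 CPM in si-MYLK-AS1 and 1.03 ± 0.403 CPM in si-NC (SD, n = 3 each; log2 fold change 0.01, standard error 0.47, adjusted p = 0.984 by edgeR's quasi-likelihood test). Whether this low count reflects a low level of RB1 RNA or the way reads were counted was not tested. Of a list of 21 genes of the cell cycle and of chromatin tied to lineage change, 18 were tested, with a median of -0.14. Among these 18, 1 rose and 7 fell, where 21.3% of all tested genes rose and 20.7% fell. The mitotic kinase AURKA (-1.50, standard error 0.10, adjusted p = 6.16e-09), the maintenance DNA methyltransferase DNMT1 (-0.98, standard error 0.09, adjusted p = 3.94e-07) and the cytidine deaminase APOBEC3B (-0.996, standard error 0.15, adjusted p = 4.13e-05) fell. The gene that rose, named after its value was seen, was the RB1 relative RBL1 (0.82, standard error 0.17, adjusted p = 0.000975).

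The label of the cells was checked against lung markers. Keratin genes of simple epithelium were abundant: KRT18 had 2475 ± 138 CPM in si-MYLK-AS1 and 4255 ± 88.9 CPM in si-NC, and KRT8 had 2623 ± 145 CPM in si-MYLK-AS1 and 4160 ± 452 CPM in si-NC (SD, n = 3 each). Both fell, by 0.78 and 0.67 on the log2 scale. The keratins KRT7 and KRT19 of the same list were named after their values were seen. KRT7 fell (-0.54, standard error 0.10, adjusted p = 0.000394 by edgeR's quasi-likelihood test). KRT19 rose to 109 ± 5.52 CPM in si-MYLK-AS1, against 84.0 ± 9.89 CPM in si-NC (0.37, standard error 0.10, adjusted p = 0.00816), so the keratins did not all fall. Markers of alveolar differentiation, by which lung adenocarcinoma is often recognised, ranged from no read to a few CPM. NKX2-1 had 10, 4 and 0 reads in si-MYLK-AS1 replicates 1 to 3, against 2, 3 and 4 reads in si-NC replicates 1 to 3, and the surfactant genes SFTPA1 and SFTPB had none. The next 3 genes of the list were named after their values were seen. The protease NAPSA had 1.51 ± 0.671 CPM in si-MYLK-AS1 and 1.49 ± 0.207 CPM in si-NC, and the lysosomal protein LAMP3 had 3.93 ± 1.42 CPM in si-MYLK-AS1 and 2.70 ± 0.610 CPM in si-NC (SD, n = 3 each), and neither passed the test (adjusted p = 0.919 for NAPSA and 0.211 for LAMP3). The epithelial adhesion molecule EPCAM was low beside the keratins, at 0.570 ± 0.0611 CPM in si-MYLK-AS1 and 1.497 ± 0.197 CPM in si-NC (SD, n = 3 each), and fell (-1.36, standard error 0.44, adjusted p = 0.0199). Of 22 epithelial and adenocarcinoma markers 12 were tested, of which 2 rose and 7 fell, where 21.3% of all tested genes rose and 20.7% fell. Their median log2 fold change was -0.59. The summed level of the list was 8378 to 8977 CPM in si-MYLK-AS1 and 12711 to 14837 CPM in si-NC. CDH1, the epithelial cadherin, fell (-1.11, standard error 0.16, adjusted p = 0.000111 by edgeR's quasi-likelihood test) and the surface glycoprotein CEACAM6 rose (1.23, standard error 0.12, adjusted p = 5.26e-07). Whether this fall of epithelial markers has a part in the rise of ENO2, SYP and SCG2 was not tested.

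Markers of other cells ran from no read to the level of CD68. Of 7 squamous markers 1 was tested, TRIM29, which rose (1.31, standard error 0.32, adjusted p = 0.00293 by edgeR's quasi-likelihood test); the summed level was 4.75 to 7.02 CPM in si-MYLK-AS1 and 2.38 to 4.34 CPM in si-NC. Of 10 immune, fibroblast and endothelial markers, the immune genes PTPRC and CD3E were at 0 in all libraries and 2 genes were tested. CD68, a lysosomal protein of macrophages that other cells also make, rose (0.56, standard error 0.12, adjusted p = 0.00141), and the collagen gene COL1A1 did not pass (0.13, standard error 0.14, adjusted p = 0.493). This list summed to 285 to 327 CPM in si-MYLK-AS1 and 189 to 268 CPM in si-NC, most of it CD68.

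**Figure D4:**
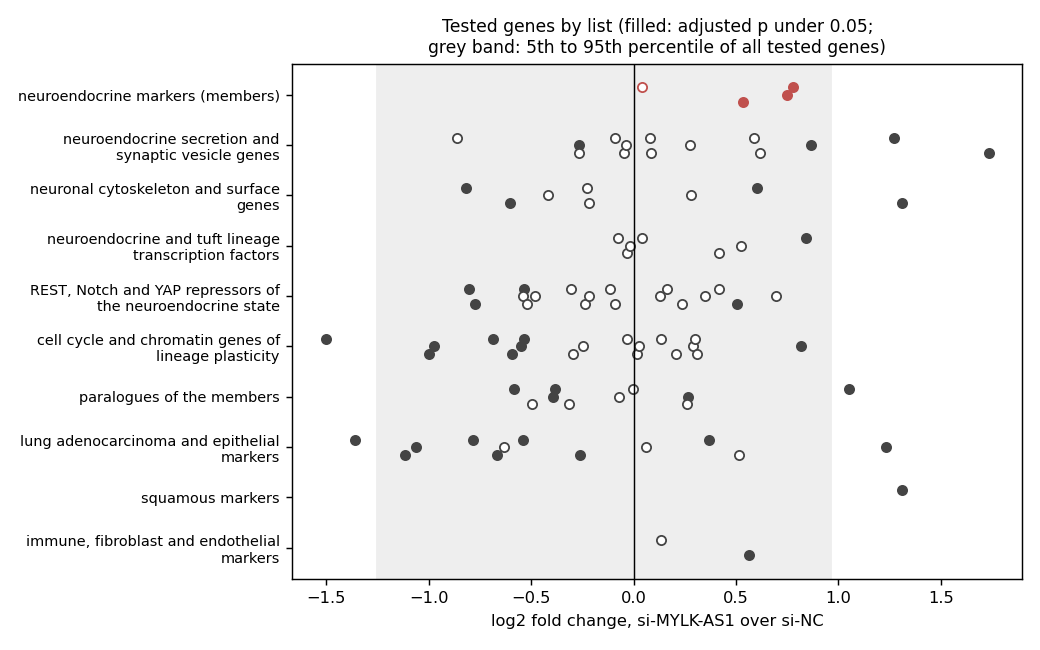
Log2 fold change of si-MYLK-AS1 over si-NC for the tested genes of the marker set (red) and of each list (dark grey), with filled points at an adjusted p under 0.05 and a grey band from the 5th to the 95th percentile of all tested genes, -1.25 to 0.96. The 4 tested markers lie inside the band, and the lists of secretory, neuronal and Notch genes hold filled points on both sides of 0.

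Genes with the pattern most like each marker were found by Pearson's r of log2(CPM + 0.5) across the 6 libraries, over the 11213 genes whose mean level reached 5 CPM. Since the 6 libraries form 2 groups, r for ENO2, SYP and SCG2 mainly ranks genes by the same difference between groups. For UCHL1, whose groups overlapped, r follows the spread among single libraries. All values of r are given as a description. For ENO2 they were VAV2 (0.999), PGK1P2 (0.995) and CERCAM (0.992). For SYP they were UGT1A1 (0.999), ELOF1 (0.996) and RPL36AL (0.996). SCG2 was most like TMBIM4 (0.998), RRP12 (0.997) and VPS37B (0.997). UCHL1 was most like TMEM38B (0.994), HARS2 (0.987) and INTS8 (0.987), none of which passed the test between the groups.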

How the data were processed

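The deposited table holds raw read counts per gene symbol with 1 column per sample, on GRCh38 per the submitters' processing notes. Total RNA was taken with Trizol and made into Ion Proton libraries, per the labels' protocols. The sources used here do not give the aligner, counting tool, annotation or strand setting. Of 54261 symbols 25004 had no read. Columns were matched to samples by title.

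The 15391 genes that passed filterByExpr were tested in edgeR 4.0.16 (R 4.3.3) with TMM scaling, quasi-likelihood with robust priors and a two-sided F test of si-MYLK-AS1 over si-NC. Benjamini-Hochberg adjustment covered all of these genes, at a threshold of 0.05. The standard error is the log2 fold change divided by the square root of F. Totals were 11055408, 9530332 and 7551303 reads in si-MYLK-AS1 replicates 1 to 3 and 8867818, 10246759 and 10978513 in si-NC replicates 1 to 3, so 3 counts, the floor for 0 reads, equal 0.274 to 0.410 CPM. No pair of libraries of the same group agreed within sampling noise. For replicates 1 and 2 the chi-square per degree of freedom was 4.93 in si-MYLK-AS1 and 2.40 in si-NC. It was higher for pairs with replicate 3, at 10.0 and 7.46 in si-MYLK-AS1 and 10.0 and 9.55 in si-NC. The fit was tested on simulated data.

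The markers, lists and motifs were chosen with earlier results of these data known, and lists are given by counts and medians. The text names the markers, their relatives, lineage genes (NEUROD1, INSM1, POU2F3, YAP1, REST, RB1 and NKX2-1), up to 4 genes with the lowest p per list and the 3 genes most like each tested marker and leaves out some that the rule would name. Alternatives were RLE scaling, no scaling, every gene kept, genes of 5 CPM or more in 3 libraries kept, limma-voom (limma 3.58.1), DESeq2 1.42.0, the repeat number as a block and leaving out each library.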

Additional observations from a re-analysis of the deposited data

How the results depend on the processing

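ENO2, SYP and SCG2 kept their direction and their call, and UCHL1 stayed without one, under RLE factors, no factors, both filters, DESeq2, limma-voom and the block. ENO2 ranged from 0.50 to 0.54, SYP from 0.75 to 0.80 and SCG2 from 0.72 to 0.76 (log2). Leaving out each library gave 0.45 to 0.60 for ENO2, 0.70 to 0.93 for SYP, 0.67 to 0.80 for SCG2 and -0.0015 to 0.091 for UCHL1, where the negative value came without si-MYLK-AS1 replicate 3, and 2 to 3 markers up. For CHGA it gave a log2 ratio of -0.021 to 0.63, with the sign turned without si-MYLK-AS1 replicate 3. MYLK-AS1 ranged from -2.95 to -1.74. The samples share repeat numbers, but deviations from the group means of same-numbered samples correlated at -0.05, 0.08 and 0.06, so the numbers are not taken as pairs. With the repeat number as a block, SCG2 had 0.75 (adjusted p = 0.0201), SYP 0.80 (0.00544) and ENO2 0.53 (0.000233), and REST passed just under the threshold, as it did under no other setting.

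Counts of list genes moved by few genes. The secretory genes that fell numbered 0 with DESeq2, limma-voom and no filter and 2 with the block. Neuronal genes that rose numbered 1 with the stricter filter, and those that fell 1 with DESeq2, RLE factors, no factors, no filter and the stricter filter. Lineage factors that rose numbered 2 without filter, genes of REST, Notch and YAP signalling that rose 2 with the block, and squamous markers that rose 0 with the stricter filter. Leaving out 1 library gave 0 to 1 secretory genes down, 0 to 1 neuronal genes down, 1 to 3 lineage factors up, 1 to 2 genes of REST, Notch and YAP signalling up, 1 to 2 genes of the cell cycle and chromatin list up, 1 to 3 relatives up and 1 to 2 epithelial markers up. The causes were not tested.

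Of named genes without a call, the sign turned for SYNGR2 (0.00017 with DESeq2 and RLE factors, 0.0068 with limma-voom, 0.0060 with no filter and 0.0072 with the block) and RB1 (-0.0019 with limma-voom and -0.0102 without factors). Leaving out 1 library gave -0.063 to 0.119 for SYNGR2, -0.341 to 0.353 for RB1, -0.227 to 0.026 for UCHL5, -0.153 to 0.018 for FOXA1, -0.013 to 0.230 for TMEM38B and -0.010 to 0.112 for INTS8. MYLK-AS1 could not be fitted under the stricter filter, where it was removed. Depth limits CHGA, for which a change of the size of SYP or SCG2 could not be detected. NCAM1 had no read, and whether depth or the way reads were counted accounts for this was not tested.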

Other observations

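Shares within the granin family were computed from the CPM per kb of exon of SCG2, CHGB, CHGA, SCG3, SCG5 and VGF. VGF made up 27.7%, 30.3% and 42.1% in si-MYLK-AS1 replicates 1 to 3, against 13.4%, 10.1% and 22.3% in si-NC replicates 1 to 3. These did not overlap, with p = 0.1 in a two-sided exact permutation test, the smallest possible with 3 against 3 samples, which passes no threshold. Shares of 1 sum move together, so the lower share of CHGB, at 37.7 ± 8.35% in si-MYLK-AS1 and 51.7 ± 3.84% in si-NC (SD, n = 3 each), is no separate result, and the level of CHGB itself was not called lower. SCG2 made up 26.7 ± 2.54% in si-MYLK-AS1 and 26.1 ± 4.20% in si-NC (SD, n = 3 each), with overlapping libraries (p = 0.8, two-sided exact permutation test). SCG5, a chaperone of prohormone convertase named after its value was seen, was too low to be tested. It had 1, 1 and 0 reads in si-MYLK-AS1 replicates 1 to 3, against 5, 5 and 3 reads in si-NC replicates 1 to 3. SYN1 of the secretory list, named in the same way and also too low to be tested, went the other way. It had 5, 10 and 5 reads in si-MYLK-AS1 replicates 1 to 3, against 2, 1 and 3 reads in si-NC replicates 1 to 3.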
